A study of Mus musculus with 8 samples.

Results

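The interferon-inducible GTPases studied here are 10 mouse genes of 3 families: the guanylate-binding proteins Gbp2, Gbp3, Gbp5 and Gbp6, the immunity-related GTPases Irgm1, Irgm2, Igtp and Iigp1, and the Mx proteins Mx1 and Mx2. They were found by gene name on Agilent arrays with 60-base probes. The names matched 13 of 41174 distinct probes, and all 10 genes were among the 15401 genes tested, each through its brightest probe. The rule uses gene names and no signal value, but the members were chosen with earlier results of these data known.

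RNA came from dendritic cells (DC) grown from total bone marrow of male C57BL/6Jax mice that were either wild type (WT) or knockout (KO) for the microRNA miR-155. All cultures grew for 7 days with GM-CSF, a myeloid growth factor, at 40 ng/mL. The stimulated groups then received 100 ng/mL lipopolysaccharide (LPS), a component of the outer membrane of Gram-negative bacteria, for 16 h, and the unstimulated groups received none. Cells were sorted by flow cytometry for DC and activation markers, so that unstimulated cells were CD86- and LPS-stimulated cells were CD86+ and, per the design text, adherent. Each difference between LPS and unstimulated therefore also compares the sort gates. The 4 groups were WT unstimulated, KO unstimulated, WT LPS and KO LPS, with 2 arrays each. The labels do not state if the replicates of a group were separate mice or cultures, so the p-values measure the spread between arrays, which may be technical. Mir155 itself, the gene removed in KO mice, was not analysed here because no probe carried its name.

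Large GTPases of these families are made by cells exposed to interferon and act inside the cell. Guanylate-binding proteins assemble on vacuoles and on bacteria in the cytosol and help to open them to the caspase-11 and inflammasome machinery. Immunity-related GTPases either coat the vacuoles of intracellular parasites and bacteria, as Iigp1 does, or sit on the cell's own membranes and hold the others in check, as the regulators Irgm1, Irgm2 and Igtp do. Mx proteins are dynamin-like GTPases that block viruses. In DC and macrophages, LPS sensing by TLR4 leads to interferon-beta, which acts back on the cells through its receptor, JAK kinases, STAT proteins and IRF9.

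The promoters of the members are shown first, because IRF proteins bind the interferon-stimulated response element (ISRE). The RefSeq promoter table, on build GRCm38.p6, gave 300 bases for each start site, from 250 before it to 50 after it. It matched 6 members with 7 start sites, of which Gbp3 has 2. Gbp6, Iigp1, Mx1 and Mx2 are named only. The letters GAAANNGAAA, a core of the ISRE, were searched on both strands. The capitals below mark this core or, where it lies on the other strand, its reverse complement, in 60-base windows written along the gene.
Gbp2, chr3:142620579-142620638, plus strand: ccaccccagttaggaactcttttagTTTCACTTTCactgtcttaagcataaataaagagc
Gbp3, first start site, chr3:142559977-142560036, plus strand: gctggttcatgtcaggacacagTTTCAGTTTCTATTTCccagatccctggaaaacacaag
Gbp5, chr3:142496744-142496803, plus strand: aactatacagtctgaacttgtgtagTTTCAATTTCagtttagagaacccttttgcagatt
Irgm1, chr11:48871421-48871480, minus strand: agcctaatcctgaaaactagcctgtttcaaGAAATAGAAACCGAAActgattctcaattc
Irgm2, chr11:58214888-58214947, plus strand: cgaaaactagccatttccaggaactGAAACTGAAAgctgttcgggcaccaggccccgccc
Igtp, chr11:58199496-58199555, plus strand: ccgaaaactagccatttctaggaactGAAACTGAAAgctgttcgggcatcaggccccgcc

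All 6 matched genes held the core in at least 1 promoter, and 6 of their 7 promoters did, the second Gbp3 start site being the one without it. In Gbp3 and Irgm1 a pair of matches overlap, which gives the longer run of capitals. The same letters stood in 3.44% of the 32851 mouse promoters in the table and in 3.26% of the 11778 promoters of genes tested. Among promoters of genes that rose after LPS in WT, 7.54% of 1087 held it, and among those of genes that fell, 2.61% of 1380. Counted from the start site, the matches lay farthest upstream in Gbp5, at -165 to -156, and nearest in Irgm1, at -24 to -15. The letters TTCNNNGAA, the gamma-activated site (GAS), which reads the same on both strands, stood in 3 of the 7 promoters, those of Gbp5, Irgm2 and Igtp, against 8.30% of all promoters. In Irgm2 and Igtp the GAS lay just upstream of the ISRE core, and it overlapped no core in any of the 3. A match describes the letters only and is no evidence of binding.

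**Figure D1:**
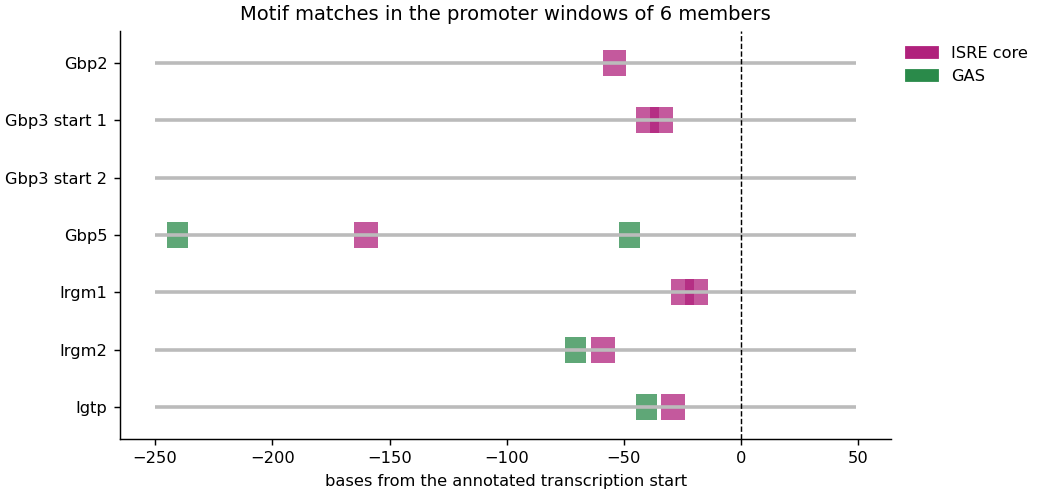
Positions of motif matches in the 7 promoters of 6 members, in bases from the annotated start site (dashed line at 0); each grey line is a 300-base promoter. The ISRE core (magenta) is in every promoter except that of the second Gbp3 start site, and the GAS (green) is in those of Gbp5, Irgm2 and Igtp.

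The Irgm2 and Igtp promoters were close copies: aligned on the core, 58 of 60 bases were identical, and the longest run shared by the whole promoters was 61 bases. No other pair among Gbp2, Gbp5, Irgm1, Irgm2 and Igtp shared a run over 11 bases. The array probes of Irgm2 and Igtp lay 15.1 kb apart on chromosome 11 of build mm9, the build of the array files. The Irgm1 probe lay 9342 kb from that of Igtp on the same chromosome. The probes of Gbp5, Gbp3 and Gbp2 lay within 116 kb on chromosome 3, those of Mx1 and Mx2 112.7 kb apart on chromosome 16, that of Gbp6 on chromosome 5 and that of Iigp1 on chromosome 18. RefSeq lists Mx1 and Mx2 of the C57BL/6J reference as transcribed pseudogenes and the other 8 members as protein coding.

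The first question was how the members responded to LPS in each genotype. All 10 rose in WT and all 10 rose in KO, and in each genotype every LPS array was above every unstimulated array for every member. Over all genes tested, 9.48% rose in WT and 10.4% in KO, and 30.0% and 33.3% had LPS arrays that all lay above the unstimulated ones. The members were chosen with earlier results of these data known, so the contrast with these shares is descriptive and no independent support. The rises ran from 2.84 (Irgm2) to 6.38 (Iigp1) on the log2 scale in WT, which is 7.14-fold to 83.1-fold, with a median of 4.50. In KO they ran from 3.30 (Irgm2) to 7.03 (Iigp1), 9.87-fold to 131-fold, with a median of 4.41. The medians over all genes were 0.0013 in WT and 0.049 in KO. With normexp background correction the rises ran from 2.66 to 6.32 in WT and from 2.50 to 5.53 in KO, and all were still called. They were smaller for all 10 members in KO, whereas in WT those of Gbp2 (4.49), Gbp3 (4.12) and Irgm1 (3.53) were larger. That correction lowered the fold by over 1.5 times for all 10 members in KO and, in WT, for Gbp6 and Iigp1.

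Levels are given as scaled log2 signal, the log2 processed signal of the probe minus the 75th percentile of its array. A value of 0 is thus the 75th percentile of the array, and levels of different probes cannot be set against each other. Errors of differences are standard errors of the limma fit (n = 2 arrays per group), and adjusted p is that of limma over all genes, with a gene called when it is under 0.05.

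**Figure D2:**
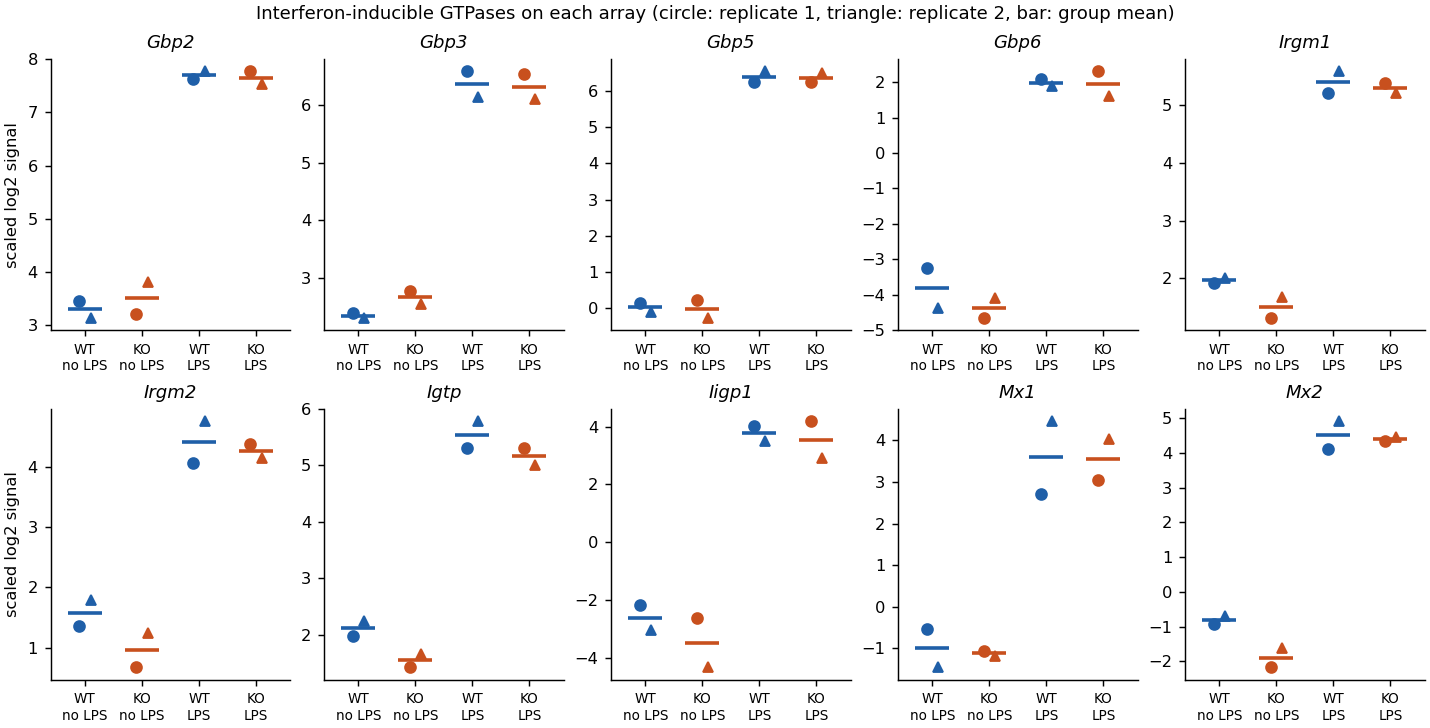
Scaled log2 signal of each member on each of the 8 arrays; circles are replicate 1, triangles replicate 2 and bars the mean of 2 arrays, with a separate vertical axis for each gene. In all 10 panels the LPS arrays lie above the unstimulated arrays of both genotypes, and after LPS the WT (blue) and KO (orange) arrays overlap in every panel.

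Among the guanylate-binding proteins, Gbp2 acts on vacuoles and on bacteria that enter the cytosol. Gbp2 read 3.46 and 3.14 on the WT unstimulated arrays, 3.20 and 3.81 on the KO unstimulated arrays, 7.62 and 7.77 on the WT LPS arrays and 7.77 and 7.53 on the KO LPS arrays. The genotypes overlapped in both states. It rose by 4.40 ± 0.30 in WT (21.05-fold, adjusted p = 0.000423) and by 4.14 ± 0.30 in KO (17.6-fold, adjusted p = 0.000402).

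Gbp3, its neighbour on chromosome 3, read 2.39 and 2.31 in WT unstimulated, 2.78 and 2.56 in KO unstimulated, 6.58 and 6.14 in WT LPS and 6.53 and 6.10 in KO LPS cells. Without LPS both KO arrays were above both WT arrays, and after LPS the genotypes overlapped. The rise was 4.01 ± 0.29 in WT (16.1-fold, adjusted p = 0.000440) and 3.65 ± 0.29 in KO (12.5-fold, adjusted p = 0.000530).

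Gbp5 is known for promoting inflammasome assembly. It read 0.15 and -0.10 in WT unstimulated, 0.23 and -0.26 in KO unstimulated, 6.24 and 6.54 in WT LPS and 6.23 and 6.48 in KO LPS cells. Arrays of the same state lay within 0.50 of each other whichever the genotype. Gbp5 rose by 6.36 ± 0.29 in WT (82.3-fold, adjusted p = 0.000143) and by 6.37 ± 0.29 in KO (82.8-fold, adjusted p = 0.000116).

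Gbp6, from the second GBP cluster on chromosome 5, was dim before stimulation. It read -3.26 and -4.38 in WT unstimulated, -4.66 and -4.08 in KO unstimulated, 2.09 and 1.89 in WT LPS and 2.31 and 1.61 in KO LPS cells. Of the WT unstimulated arrays 1 of 2 was well above background, as were both KO unstimulated arrays and all LPS arrays, so the size of the WT rise leans on a signal near the background. That rise was 5.80 ± 0.45 (55.9-fold, adjusted p = 0.000584), and in KO it was 6.33 ± 0.45 (80.4-fold, adjusted p = 0.000382). With normexp background correction the rises were 4.17 and 4.31. Genes of this cluster are close copies, and other transcripts of the cluster may bind the probe.

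The regulatory immunity-related GTPases had the 3 smallest rises of the members in WT, and in KO their rises ran from 3.30 to 3.81, with that of Gbp3 among them. Irgm1, needed for control of mycobacteria and linked to autophagy, read 1.92 and 2.001 in WT unstimulated, 1.31 and 1.67 in KO unstimulated, 5.21 and 5.59 in WT LPS and 5.38 and 5.22 in KO LPS cells. Both KO unstimulated arrays were below both WT ones, and after LPS the genotypes overlapped. The rise was 3.44 ± 0.27 in WT (10.8-fold, adjusted p = 0.000615) and 3.81 ± 0.27 in KO (14.0-fold, adjusted p = 0.000382). A second Irgm1 probe rose by 3.37 in WT and 3.38 in KO, and another was well above background on 0 of 8 arrays.

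Irgm2, which lies on Golgi membranes, read 1.36 and 1.78 in WT unstimulated, 0.67 and 1.24 in KO unstimulated, 4.06 and 4.76 in WT LPS and 4.38 and 4.14 in KO LPS cells. Its rise was 2.84 ± 0.36 in WT (7.14-fold, adjusted p = 0.00297) and 3.30 ± 0.36 in KO (9.87-fold, adjusted p = 0.00155). These are the smallest of the members, except that in KO Gbp3 was below Irgm2 in some alternatives. This was so with slide as a block (3.48 against 3.62), within slide 2 and without KO unstimulated replicate 2 (3.53 against 3.59 in each). Igtp, also called Irgm3 and found on the endoplasmic reticulum, read 1.98 and 2.25 in WT unstimulated, 1.43 and 1.67 in KO unstimulated, 5.30 and 5.79 in WT LPS and 5.31 and 5.01 in KO LPS cells. Igtp rose by 3.43 ± 0.29 in WT (10.8-fold, adjusted p = 0.000820) and by 3.61 ± 0.29 in KO (12.2-fold, adjusted p = 0.000584). For both genes the KO unstimulated arrays were below the WT unstimulated arrays, and the genotypes overlapped after LPS.

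Iigp1, an effector that coats and breaks the vacuole of Toxoplasma gondii, had the widest error of the members in each genotype. It read -2.19 and -3.03 in WT unstimulated, -2.64 and -4.33 in KO unstimulated, 4.03 and 3.51 in WT LPS and 4.19 and 2.90 in KO LPS cells. Replicate 1 was above replicate 2 in all 4 groups, by up to 1.69. Iigp1 rose by 6.38 ± 0.67 in WT (83.1-fold, adjusted p = 0.00164) and by 7.03 ± 0.67 in KO (131-fold, adjusted p = 0.00102), the largest values of the members. The rank is not firm. In WT Gbp5 was above Iigp1 with normexp (6.32 against 5.53) and with slide as a block (6.31 against 5.82). Within slide 1 and without WT LPS replicate 1 Gbp5 was also above it (6.51 against 6.12 in each). Without WT unstimulated replicate 2 the values were 6.24 against 5.95. In KO Gbp5 was above Iigp1 with normexp (5.53 against 5.26) and without KO LPS replicate 1 (6.49 against 6.38). Mx2 was above it with slide as a block (6.64 against 6.48). Within slide 2 and without KO unstimulated replicate 2, Gbp6 (6.62) and Mx2 (6.58) were above Iigp1 (6.18). In KO the rise was 7.88 without unstimulated replicate 1, 6.18 without unstimulated replicate 2, 6.38 without LPS replicate 1 and 7.68 without LPS replicate 2.

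Mx1, whose intact form blocks influenza virus in the nucleus, read -0.55 and -1.46 in WT unstimulated, -1.07 and -1.19 in KO unstimulated, 2.72 and 4.47 in WT LPS and 3.06 and 4.05 in KO LPS cells. The stimulated arrays differed between replicates by 1.75 in WT and 0.99 in KO, replicate 2 being the higher in both, so the levels after LPS are poorly fixed, and the WT rise was 5.48 without LPS replicate 1 and 3.72 without LPS replicate 2. It rose by 4.60 ± 0.64 in WT (24.2-fold, adjusted p = 0.00429) and by 4.68 ± 0.64 in KO (25.6-fold, adjusted p = 0.00361), and its second probe by 4.53 and 4.65.

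Mx2, an Mx protein of the cytoplasm, read -0.91 and -0.69 in WT unstimulated, -2.17 and -1.62 in KO unstimulated, 4.12 and 4.92 in WT LPS and 4.35 and 4.46 in KO LPS cells. Both KO unstimulated arrays were below both WT ones, and the KO LPS arrays lay between the WT LPS arrays. The rise was 5.32 ± 0.35 in WT (40.0-fold, adjusted p = 0.000376) and 6.30 ± 0.35 in KO (79.1-fold, adjusted p = 0.000164).

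**Figure D3:**
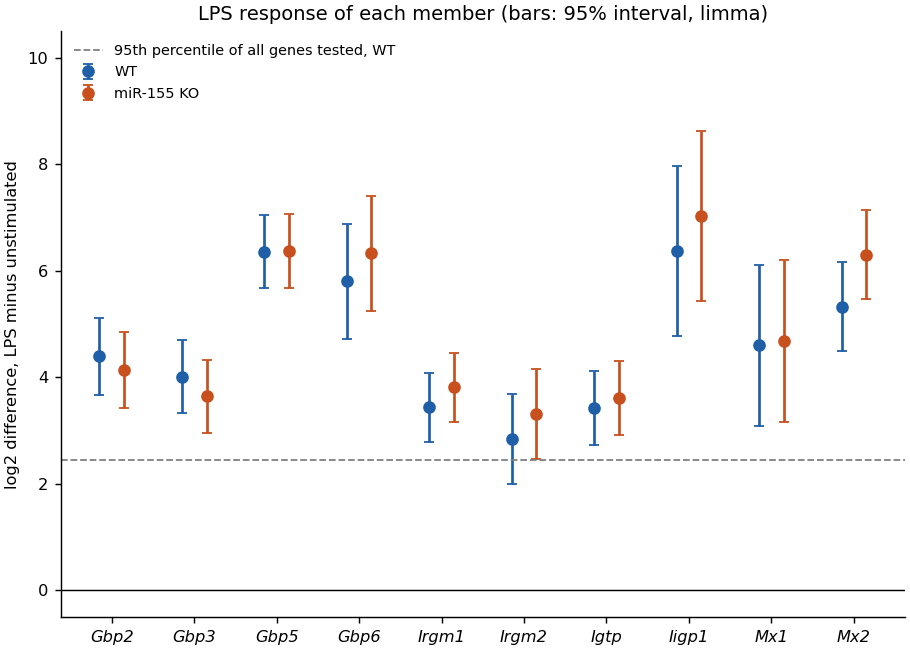
LPS response of each member as the log2 difference between LPS and unstimulated arrays in WT (blue) and KO (orange), with 95% intervals from limma (n = 2 arrays per group). All points lie above the dashed 95th percentile of the WT response over all genes tested, at 2.44, and the intervals of the genotypes overlap for every member.

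The arrays lay on 2 slides. Slide 1 held both WT unstimulated arrays, and slide 2 both KO LPS arrays, while WT LPS and KO unstimulated had 1 array on each. With slide as a block, the WT responses of the members ran from 3.15 to 6.31 and the KO responses from 3.48 to 6.64, and all 10 were called in each. Within slide 1 the WT responses ran from 3.18 to 6.51, all called. Within slide 2 the KO responses ran from 3.53 to 6.62, and 8 of 10 were called, Iigp1 (6.18, adjusted p = 0.0520) and Mx1 (4.62, adjusted p = 0.0552) missing the threshold in that smaller comparison, where 441 genes were called in all. WT LPS on slide 1 and KO unstimulated on slide 2 are single arrays there, assumed to vary like the group with 2 arrays on that slide, so these calls rest on little.

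The second question was whether the members differed between KO and WT cells. Before LPS, 0 of 10 members were called by limma, with adjusted p = 0.9999 for each, and 0.24% of all genes were, 37 in number. At an unadjusted p under 0.05 there was 1 member, Mx2, and 394 genes over the whole array. The differences of KO from WT ran from -1.09 (Mx2) to 0.32 (Gbp3) with a median of -0.51, against -0.045 over all genes, and 8 of 10 were negative. Of these, Gbp5 turned positive with normexp background correction and Mx1 with slide as a block. Without WT unstimulated replicate 1, Gbp5 (0.082), Gbp6 (0.0046) and Mx1 (0.34) were positive. Without KO unstimulated replicate 2, Gbp5 was positive (0.21) and Gbp2 negative (-0.095). The 95% intervals of Iigp1, from -2.48 to 0.72, and Mx1, from -1.64 to 1.39, leave room for differences of more than 2-fold. So do those of Gbp6, Irgm1, Irgm2, Igtp and Mx2 and, barely, that of Gbp3, which reaches 1.0018. Those of Gbp2, from -0.51 to 0.93, and Gbp5, from -0.73 to 0.65, do not.

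By role, the 3 regulators had values below 0 before LPS, with intervals that include 0. The difference was -0.47 ± 0.27 for Irgm1, -0.62 ± 0.36 for Irgm2 and -0.57 ± 0.29 for Igtp. These 3 genes and Mx2 were the 4 members whose KO arrays all lay below the WT arrays, an arrangement found in 13.1% of all genes. Gbp3 was the member whose KO arrays all lay above, found in 7.89% of all genes, with a difference of 0.32 ± 0.29.

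Mx2 differed by -1.09 ± 0.35, with a 95% interval from -1.93 to -0.26 and an unadjusted p of 0.0176 in limma that did not pass the adjustment. Its 2 KO unstimulated arrays were on different slides. With slide as a block the difference was -0.76, and within slide 1 it was -0.82. Mx1, its neighbour, differed by -0.12 ± 0.64, and with slide as a block by 0.28. Among the others, Gbp2 differed by 0.21 ± 0.30, Gbp5 by -0.04 ± 0.29, Gbp6 by -0.56 ± 0.45 and Iigp1 by -0.88 ± 0.67, each with overlapping genotypes.

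In the 9 pathway lists described below, no gene was called between genotypes before LPS, and the list medians ran from -0.26 to 0.15. From them 3 interferon-responsive genes are given here, picked after their values were seen. Irf7, the factor that amplifies interferon production, read -1.45 and -0.04 in WT and -3.02 and -1.51 in KO cells, a difference of -1.52 ± 0.61. Isg15, a ubiquitin-like protein, read 0.96 and 1.08 in WT and -0.23 and 0.05 in KO cells, a difference of -1.11 ± 0.37. For Usp18, the protease that removes Isg15 and limits type I interferon signalling, the readings were 1.17 and 1.30 in WT and -0.19 and 0.45 in KO cells, a difference of -1.11 ± 0.35. All 3 had KO arrays wholly below WT arrays, as 13.1% of all genes had, and adjusted p = 0.9999 in limma. Because they were picked after their values were seen, this arrangement is no support for a difference. For Irf7 the gap was narrow, with -1.51 in KO and -1.45 in WT. Other induced genes of the lists had values above 0, without passing the test: the difference was 1.38 ± 0.56 for Gbp1, 0.77 ± 0.61 for Gbp7, 0.35 ± 0.30 for Gbp9 and 0.46 ± 0.37 for Jak2.

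After LPS, 0 of 10 members were called between genotypes by limma, with adjusted p = 0.9997, 0 had an unadjusted p under 0.05, and 0 had arrays that did not overlap between genotypes, which 11.4% of all genes had with KO higher and 9.88% with KO lower. Over all genes 0.026% were called, 4 in number, with 187 at an unadjusted p under 0.05. The differences ran from -0.39 (Igtp) to -0.03 (Gbp6), with a median of -0.07 against -0.0068 over all genes. All 10 were negative, but quantile normalization turned 4 of them to just above 0 (Gbp2, Gbp3, Gbp5, Mx1), slide as a block turned 6 and within slide 2 alone 6 were positive, so no direction is given. Gbp5 had one of the narrower intervals, from -0.73 to 0.66, and Iigp1 the widest, from -1.82 to 1.37. These intervals do not cover the choice of background correction. With normexp all 10 differences lay between -1.04 and -0.44, uncalled, and that of Gbp5, -0.76, lay outside its interval.

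**Figure D4:**
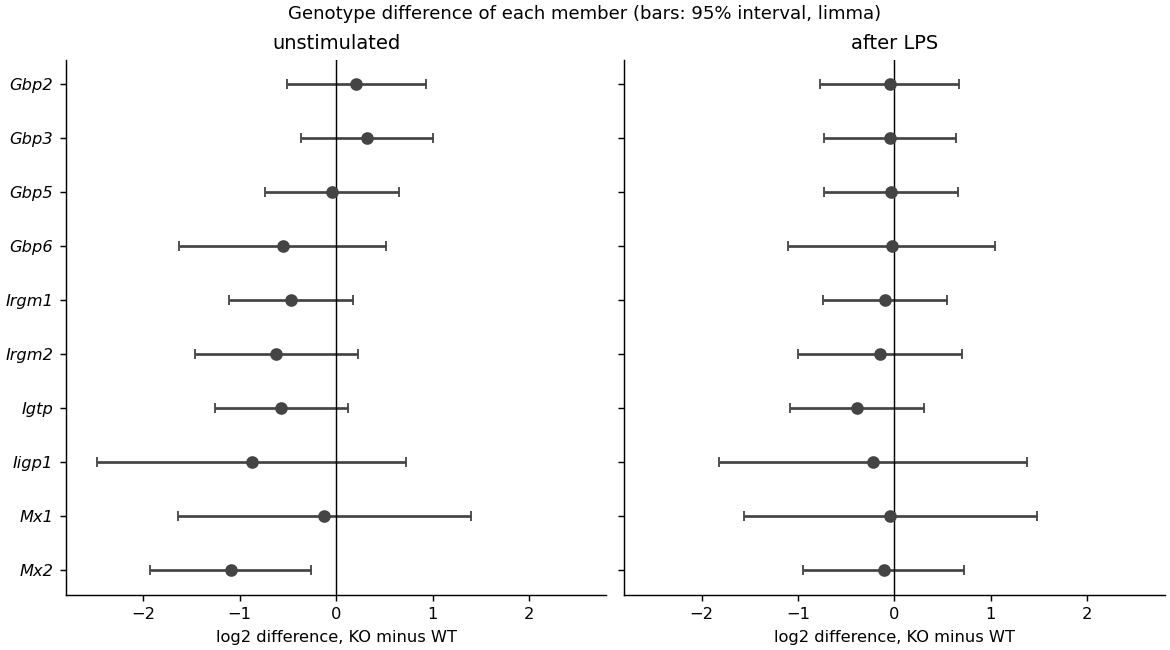
Difference of KO from WT for each member before LPS (left) and after LPS (right), in log2 units with 95% intervals from limma (n = 2 arrays per group). Before LPS the interval of Mx2, from -1.93 to -0.26, is the one that leaves out 0, and after LPS every interval includes 0.

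The test of whether the LPS response itself differed between genotypes called 0 of 10 members and 0.0455% of all genes, 7 in number, with 219 genes and 0 members at an unadjusted p under 0.05. KO minus WT, the difference of responses ran from -0.36 ± 0.41 (Gbp3) to 0.98 ± 0.50 (Mx2, 95% interval -0.20 to 2.16). With normexp it ran from -1.20 (Gbp3) to 0.14 (Gbp6), with Mx2 at 0.069. Averaged over both states, 0 members and 0.143% of all genes, 22 in number, were called between genotypes.

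The pathway around the members was described through lists chosen by gene function, with earlier results of these data known. Their counts are therefore descriptive. The counts of each list stand beside those over all genes. Of 15401 genes tested in WT, 1460 rose and 1646 fell, and of 15400 in KO, 1595 rose and 1613 fell. Of 13 other GBP and IRG genes tested, 11 rose in WT and in KO, with medians of 2.82 and 2.17. Tgtp1, an immunity-related GTPase of T cells and macrophages, rose by 7.25 ± 0.52 in WT and 7.80 ± 0.52 in KO. Gbp4 rose by 5.98 ± 0.56 and 6.26 ± 0.56, and Gm4951, not well above background without LPS, at least 5.26-fold in WT and at least 8.59-fold in KO. Irgc1, named after its value was seen as the single gene that fell, was called in KO alone, at -3.21 ± 0.91 against -2.30 ± 0.91 in WT, and this difference between genotypes was not called.

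Genes of the dynamin superfamily and related proteins that interferon is not known to induce were set beside the members. Of 12 tested, which were dynamin, mitofusin, Opa1, atlastin and EHD genes together with Srl and the exchange factor Gbf1, 2 rose in each genotype and none fell, with medians of -0.04 and -0.02, near the median of all genes. Ehd1, which recycles endocytic membrane, rose by 3.16 ± 0.29 and 3.38 ± 0.29, and the atlastin Atl3 by 1.37 ± 0.35 and 1.55 ± 0.35.

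Of the ligands, 7 of 15 genes on the array passed the filter on dim probes and 3 of them rose in each genotype. Ifnb1, interferon-beta, was not well above background on any unstimulated array and rose at least 6.34-fold in WT and at least 21.5-fold in KO. With normexp its differences were 1.104 in WT (adjusted p = 0.585) and 2.43 in KO (adjusted p = 0.0572), so neither call held, and the WT call was also lost when any one WT array was left out (adjusted p = 0.0602 to 0.101). Its LPS arrays read -2.38 and -1.42 in WT and -2.64 and 0.72 in KO cells, so the KO bound leans on replicate 2. The IL-27 subunits rose as well, Ebi3 by 2.56 ± 0.49 and 2.81 ± 0.49 and Il27 by 1.96 ± 0.31 and 1.69 ± 0.31. Ifng, interferon-gamma, did not pass the filter.

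Among 13 receptor and JAK-STAT genes, 4 rose and 1 fell in WT, and 5 rose and 1 fell in KO. Ifngr1, the ligand-binding chain of the interferon-gamma receptor, was the one that fell, by 2.04 ± 0.45 on the log2 scale in WT and 1.74 ± 0.45 in KO. Ifnar2 of the interferon-beta receptor rose by 1.32 ± 0.36 and 1.34 ± 0.36, whereas Ifnar1 (0.81 and 0.38) and Ifngr2 (0.98 and 1.005) were not called in either genotype. Stat2 rose by 2.82 ± 0.31 and 3.12 ± 0.31, and the kinase Jak2 by 2.92 ± 0.37 and 2.37 ± 0.37. Irf9, the DNA-binding partner of STAT proteins, was called in KO (1.64 ± 0.41) and not in WT (1.17 ± 0.41). Its responses differed by 0.46 ± 0.57, which was not called, and normexp lost the KO call (adjusted p = 0.213 in limma).

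Of 13 interferon regulatory factors and partners, 3 rose in WT and 4 in KO. Irf7 rose by 7.44 ± 0.61 and 8.49 ± 0.61, Batf2 by 3.27 ± 0.29 and 3.05 ± 0.29, and Nlrc5, the activator of MHC class I genes, by 2.92 ± 0.33 and 2.69 ± 0.33. Irf1, a main inducer of GBP genes, was called in KO (2.09 ± 0.46) and not in WT (1.28 ± 0.46). The difference between these responses, 0.81 ± 0.64, was not called, and normexp lost the KO call (adjusted p = 0.130 in limma). Of 15 inhibitors and feedback genes 4 rose in each genotype, among them Isg15 by 6.72 ± 0.37 and 7.54 ± 0.37, Usp18 by 5.02 ± 0.35 and 6.04 ± 0.35, and Socs1, which blocks JAK kinases, by 3.99 ± 0.68 and 3.87 ± 0.68.

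Proteins that work with GBP and IRG proteins on vacuoles were counted by role, beside 1646 genes that fell in WT and 1613 in KO over all genes. Of 17 autophagy genes, which hold the conjugation enzymes that GTPase loading needs and also initiation and ATG4 genes, none rose and 1 fell: Atg7, the enzyme that starts the conjugation, fell by 1.58 ± 0.30 in WT and 1.73 ± 0.30 in KO. Of 8 ubiquitin ligases and adaptors that follow the GTPases, 4 rose in WT and 5 in KO, with Trim21 at 3.16 ± 0.39 and 3.35 ± 0.39 and Traf6 at 1.43 ± 0.34 and 1.61 ± 0.34. Sqstm1, the p62 adaptor, was called in KO (1.71 ± 0.46) and not in WT (0.95 ± 0.46). Its responses differed by 0.76 ± 0.65, which was not called, and normexp lost the KO call (adjusted p = 0.236 in limma). Of 9 inflammasome genes, 4 rose and 1 fell in WT and 3 rose and 1 fell in KO. Il1b rose by 6.10 ± 0.74 and 6.69 ± 0.74, Casp4, the mouse caspase-11 gene, by 3.54 ± 0.32 and 4.10 ± 0.32, and Pycard, the adaptor ASC, fell by 2.08 ± 0.29 and 2.22 ± 0.29. No gene of these 9 lists was called between genotypes in either state or in the difference of responses.

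**Figure D5:**
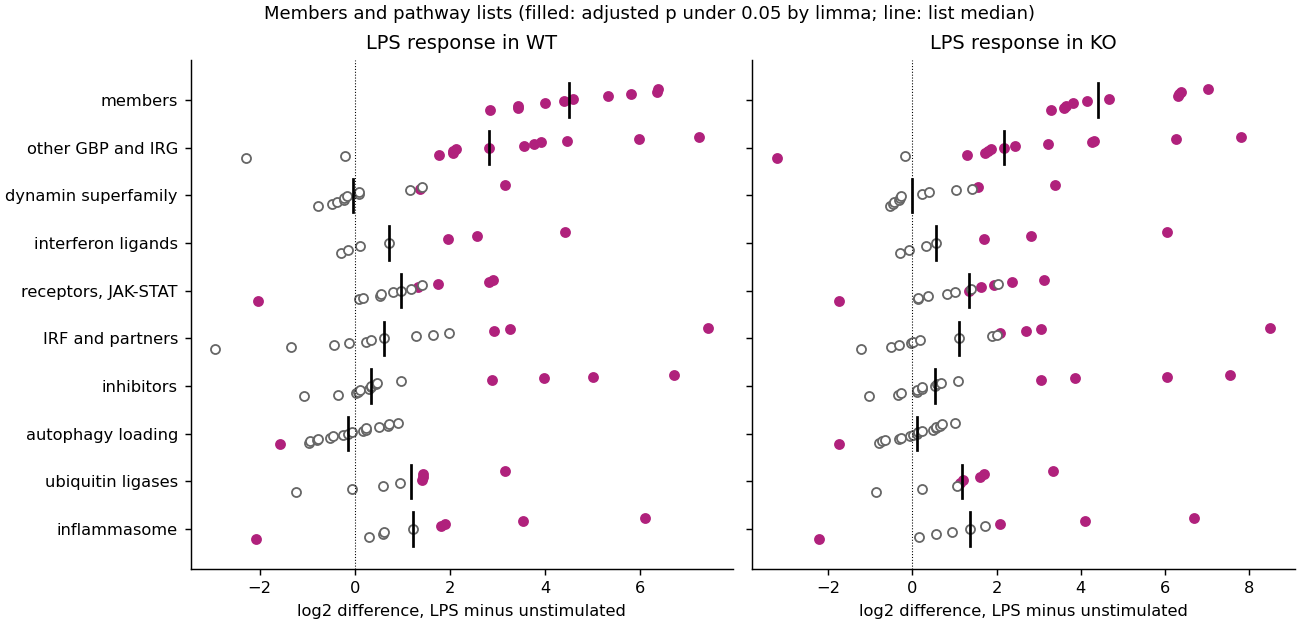
LPS response in WT (left) and KO (right) of each tested gene of the members and 9 pathway lists, as log2 difference; filled points had an adjusted p under 0.05 in limma, open points did not, and the vertical bars are list medians. The medians of the members, 4.50 and 4.41, and of other GBP and IRG genes, 2.82 and 2.17, stand right of the medians of the other lists, which run from -0.15 to 1.36.

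Cell markers moved with LPS as well. The summed linear signal of 12 DC markers was taken relative to each array's 75th percentile. It was 876 to 1109 in WT unstimulated and 1044 to 1379 in WT LPS cells. All 12 were detected, though Clec9a was well above background on 4 of 8 arrays and Cd209a on 5. Of the 12, 2 rose and 2 fell in each genotype. On the log2 scale Ccr7 rose by 6.65 in WT and 7.24 in KO, and Cd83 by 5.56 and 6.18. Clec9a fell by 3.87 and 4.43 and Cd209a by 5.35 and 5.01. Basophil, mast cell and eosinophil markers went from 3.62–4.43 to 0.163–0.248 in WT and from 3.06–3.23 to 0.225–0.243 in KO, and 5 of 6 tested fell in WT and 4 in KO. Macrophage markers had 1 of 10 tested rising and 5 falling in each genotype, and monocyte markers 1 of 6 rising and 3 falling. Of the monocyte markers, Ms4a6d rose by 3.52 on the log2 scale in WT and 4.21 in KO, and Ccr2 fell by 5.96 in WT. The summed monocyte signal went from 52.3–115 to 163–166 in WT and from 65.3–71.6 to 115–196 in KO. Stromal markers, 7 on the array, went from 0.299–0.652 to 4.38–8.22 in WT and from 0.300–0.706 to 5.24–14.0 in KO, and 4 of 5 tested rose in WT and 3 in KO, among them Dcn and Lum. Erythroid markers went from 0.589–0.856 to 21.7–47.1 in WT and from 0.391–0.568 to 24.3–56.2 in KO, where Car1 and Car2 rose and Klf1 was never well above background. The plasmacytoid DC list went from 26.0–26.1 to 218–274 in WT and from 15.3–19.4 to 170–244 in KO, with 2 of 4 tested genes rising, Bst2 and Tcf4, the first of which is itself induced by interferon. Of the NK cell markers, a possible source of interferon-gamma, Gzmb, Prf1 and Eomes were never well above background and 2 of 3 tested fell, while the summed signal of all 7 went from 0.397–0.525 to 0.683–1.42 in WT and from 0.449–0.470 to 0.312–1.37 in KO. The part of these cells in the members' response was not tested, and in bulk RNA fewer cells of a type and less RNA per cell cannot be told apart.

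The genes whose pattern was most like that of the members were found by the root mean square difference between their values, centred on the mean of each gene, and the median of the centred members over 8 arrays, with a median of 2.28 over all genes. The nearest non-members were D14Ertd668e (0.176), Car13, a carbonic anhydrase (0.271), Tnfsf10, the death ligand TRAIL (0.275), Rcl1 (0.281) and Tlr1, a receptor for bacterial lipopeptides (0.308). D14Ertd668e read 0.69 and 0.57 in WT unstimulated, 0.38 and 0.57 in KO unstimulated, 4.96 and 5.87 in WT LPS and 5.08 and 5.06 in KO LPS cells. Of the members, Gbp2 lay nearest to their common pattern (0.235) and Iigp1 farthest (1.30).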

How the data were processed

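Total RNA of 8 samples was labelled with Cy3 and hybridised to 1 array each. Per the file headers, the authors extracted spots with Feature Extraction 10.5.1.1 on build mm9; the deposited intensity values are the linear processed signal, after background subtraction, with mean and background signals and 0 or 1 flags as other deposited columns. The deposited series table holds log2 values; set against the scanner values, these equalled the log2 processed signal minus a constant per array for 100% of values, to within 0.01. The number of arrays limits the precision, and 50.8% to 58.3% of spots were well above background.

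Control and outlier spots (120 to 174 of the latter per array) were left out, log2 signals were scaled to the array's 75th percentile, probes had to be well above background on both arrays of a group (23739 kept), and the brightest probe stood for a gene. limma 3.58.1 in R 4.3.3 (with version 1.17.8 of data.table for reading) fitted 4 group means (4 residual and 2.88 prior degrees of freedom), with two-sided p-values adjusted by Benjamini-Hochberg; the procedure was tested on simulated data. For a gene not well above background in a whole group, the fold is a lower bound against, per array, the higher of its signal and the lowest signal well above background.

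All members are named. Of each list, the 3 largest called differences are named, together with a fixed set of interferon ligands, receptors and factors; symbols are those of the array design. The members and lists were chosen with earlier results of these data known. Alternatives were normexp background correction, quantile normalization, median centring, the deposited table, no filter, averaged probes, slide and replicate blocks, single slides, trend with robust moderation, and leaving out each array. Values of some list genes are not reported here.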

Additional observations from a re-analysis of the deposited data

How the results depend on the processing

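All 10 members kept their call in both LPS responses under every alternative run, with the 2 exceptions within slide 2 given above; adjusted p ran from 3.61e-05 to 0.0261 in WT and from 3.25e-05 to 0.0552 in KO. No member was called between genotypes under any alternative. The 30 named list genes were less stable, with 25 called in WT and 28 in KO. Normexp lost 10 and 11 of these calls, among them Gm4951 (adjusted p = 0.220), Atl3 (0.211), Ifngr1 (0.0893), Atg7 (0.0991), Traf6 (0.248), Pycard (0.0603) and Il27 (0.0746) in WT; the slide block lost 4 and 4, within slide 1 lost 6 in WT and within slide 2 lost 20 in KO. Leaving out some single array lost 8 in WT (Atg7, Atl3, Ebi3, Gm4951, Ifnar2, Ifnb1, Ifngr1, Traf6) and 11 in KO (Atg7, Atl3, Gm4951, Ifnar2, Ifngr1, Il27, Irf1, Irf9, Socs1, Sqstm1, Traf6). Irf9 in WT was called with the slide block (adjusted p = 0.0468). In KO, the calls of Irf1, Irf9 and Sqstm1 were among those lost with normexp. Counts over all genes moved more. Normexp gave 731 genes for the WT response and 999 for the KO response and 0 for each genotype comparison and the difference of responses; it moved the share of calls that were higher from 47.0% to 60.5% in WT and from 49.7% to 62.1% in KO, and the KO median over all genes to 0.17. Median centring moved that median to -0.14. Within slide 1 there were 1533 genes for WT LPS and 0 for KO against WT before LPS; within slide 2 there were 441 for KO LPS and 0 for KO against WT after LPS. Slide as a block gave 5, 0, 0 and 0 genes for KO against WT before LPS, after LPS, averaged, and the difference of responses. Trend with robust moderation gave 6 genes before LPS, 4 averaged and 0 for the difference. No filter gave 56 before LPS, 2 after LPS and 0 for the difference; quantile normalization gave 14 for the difference, and median centring 7 after LPS. Leaving out 1 array gave 1442 to 2865 genes for WT LPS, 1420 to 3106 for KO LPS, 0 to 26 before LPS, 0 to 0 after LPS, 0 to 8 averaged and 0 to 10 for the difference. The causes were not tested.

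The labels do not say what a replicate number stands for, and each comparison has only 2 pairs; as a hint from the data, deviations of replicate 1 correlated between groups at 0.013 to 0.69 and the second principal component (9.57%) put replicate 1 arrays above 0 and replicate 2 arrays below it in all 4 groups. The replicate block gave 4154 genes for WT LPS, 4187 for KO LPS, 27 before LPS, 2 after LPS, 19 averaged and 0 for the difference, with all 10 members called in both responses; of the named list genes it added the calls of Ifngr2, Irf1, Irf9 and Sqstm1 in WT and of Ifngr2 in KO.

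Signs that turned were those of uncalled differences. Not all of these were small: in the difference of responses they include Iigp1 (0.65) and Gbp6 (0.53). For KO against WT before LPS, Gbp5 was 0.028 with normexp and Mx1 0.28 with the slide block; leaving out 1 array gave -0.10 to 0.51 for Gbp2, -0.29 to 0.21 for Gbp5, -1.12 to 0.0046 for Gbp6 and -0.58 to 0.34 for Mx1. After LPS, quantile normalization gave Gbp2 0.011, Gbp3 0.00010, Gbp5 0.037 and Mx1 0.0018, and averaged probes gave Mx1 0.051. The slide block gave Gbp2 0.14, Gbp6 0.063, Irgm1 0.089, Irgm2 0.16, Mx1 0.36 and Mx2 0.23, and slide 2 alone Gbp2 0.025, Gbp5 0.11, Irgm1 0.094, Irgm2 0.20, Mx1 0.83 and Mx2 0.29. Normexp instead put all 10 members between -1.04 and -0.44, uncalled. Leaving out 1 array after LPS gave -0.17 to 0.074 for Gbp2, -0.26 to 0.17 for Gbp3, -0.18 to 0.11 for Gbp5, -0.38 to 0.32 for Gbp6, -0.29 to 0.094 for Irgm1, -0.50 to 0.20 for Irgm2, -0.87 to 0.42 for Iigp1, -0.92 to 0.83 for Mx1 and -0.51 to 0.29 for Mx2. For the difference of responses, normexp gave Gbp5 -0.79, Irgm1 -0.42, Irgm2 -0.16, Igtp -0.51, Iigp1 -0.27 and Mx1 -0.54, and median centring Gbp5 -0.083 and Mx1 -0.012. Leaving out 1 array there gave -0.56 to 0.048 for Gbp2, -0.24 to 0.26 for Gbp5, -0.034 to 1.09 for Gbp6, -0.061 to 0.42 for Igtp, -0.19 to 1.5003 for Iigp1 and -0.80 to 0.96 for Mx1. The Ifnar1 response in KO was -0.11 with normexp.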
